A study of Zea mays with 24 samples.

Results

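The response of ZmICE1a mutant maize endosperm to jasmonic acid (JA) was examined in 6 of the 24 libraries of the series, in 2 groups of 3, chosen by the names of their count tables. The tables of the first group are named for the mutant at level 100 and those of the second for the mutant at level 0, with no unit. Endosperm is the nutritive tissue of the kernel, and every library was made by MP3RNA-seq from RNA of 5 to 10 pooled endosperms at 15 days after pollination. ZmICE1a is a maize relative of ICE1, a transcription factor of the basic helix-loop-helix class known in Arabidopsis for its part in the cold response. The sources used here do not give the mutant allele, the JA dose or the time of exposure. Nothing says that the replicates came from separate plants or cultures, and the spread behind every p-value is that between libraries, which may be only technical.

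The labels of the second group conflict. All labels of the first group describe ZmICE1a mutant endosperm treated with JA, and it is called mutant JA-treated. The second group carries titles that read wild type with JA, a genotype field and a stage label that read mutant, and a treatment field that reads JA treatment, while its count tables are named for the mutant at level 0. It is called the group filed as mutant untreated. Read by the table names, the comparison is the JA response of the mutant. Read by the titles, it is an effect of genotype under JA. Read by the genotype and treatment fields, both groups are mutant with JA. The same conflict, mirrored, affects 3 libraries titled mutant without JA, whose genotype field reads wild type, whose treatment field reads untreated and whose tables are named for wild type at level 100. They are called the group filed as wild type treated, and are set against wild type JA-untreated, for which all labels agree. The values below hold for the named libraries under each reading, and which reading is right was not tested.

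Jasmonates are lipid-derived plant hormones of wounding, defence and reproductive development. The conjugate jasmonoyl-isoleucine binds the receptor COI1, JAZ repressor proteins are then degraded, and transcription factors such as MYC2 are released to act on their target genes. In cereal kernels, storage proteins and starch make up much of what the endosperm accumulates. The genes behind these, and those of jasmonate and defence, are nuclear. Neither the count tables nor the reference table names any of the 44146 nuclear gene models. The 14 lists holding 258 symbols of jasmonate, defence, storage protein, starch and related genes therefore matched 0 members. The level of ZmICE1a and the markers of endosperm cell types could not be looked up for the same reason. Names were available for the mitochondrial and plastid genes and for microRNA precursors, and nuclear genes are given by identifier with no role.

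The mutant JA-treated libraries held 853162, 847205 and 857113 counts, and the libraries filed as mutant untreated held 1353622, 992627 and 839322. Between 19750 and 19890 of the 46430 features had a count in the mutant JA-treated libraries, against 19840 to 21496 in those filed as mutant untreated. ENSRNA features, a class of identifiers with no name in the tables, stood apart in part of the second group. They took 3.44%, 2.02% and 2.87% of the counts in the mutant JA-treated libraries, against 10.7%, 6.84% and 3.33% in the libraries filed as mutant untreated. Replicates 1 and 2 of the group filed as mutant untreated lie above every other library of the JA experiment, where the share ran from 1.13% to 3.61%. The exact permutation test of the shares gave a 2-sided p of 0.2, and 3 libraries against 3 cannot give less than 0.1.

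In mutant JA-treated endosperm 232 features rose and 181 fell, of 11265 tested, relative to the group filed as mutant untreated. These 413 features are 3.67% of those tested, 2.06% higher and 1.61% lower, by the quasi-likelihood test of edgeR at a Benjamini-Hochberg adjusted p under 0.05. The changes were mostly moderate, with a median size of 0.80 on the log2 scale, or 1.74-fold. A change of at least 1 on the log2 scale was found in 100 of the features that rose and in 50 of those that fell. Over all features tested the median log2 fold change was 0.009, and 50.9% lay above 0. The count was 247 without replicate 2 of the group filed as mutant untreated, 242 without mutant JA-treated replicate 2 and 269 without mutant JA-treated replicate 3. With replicates 1 and 2 of the group filed as mutant untreated both left out, 143 features were called, 91 higher and 52 lower. With only the 6 libraries in the fit 224 were called, 150 higher and 74 lower.

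Nuclear gene models were called at about the rate of all features, with 229 higher and 165 lower among 10993 tested, or 3.58% against 3.67%. Calls were concentrated among abundant features. Levels are given as CPM, the count scaled to a common library size. Among the 2817 features of lowest mean level, with a median of 8.7 CPM, 0.71% were called, and the median size of their changes was 1.90 on the log2 scale. Among the 2816 of highest level, with a median of 85.5 CPM, 9.98% were called and the median size was 0.66.

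**Figure D1:**
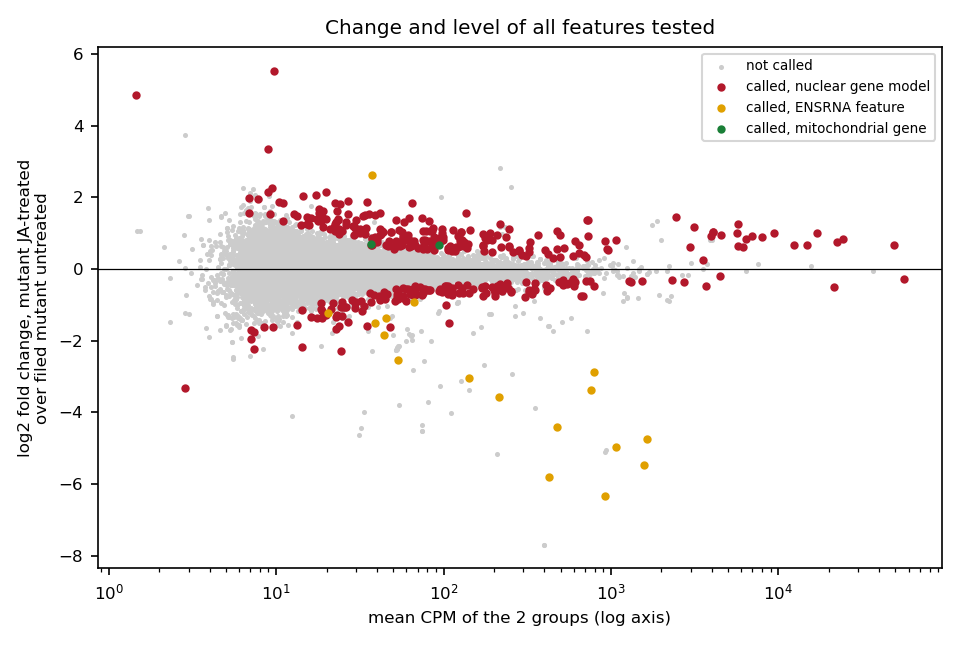
Log2 fold change of mutant JA-treated over the group filed as mutant untreated (y axis) against the mean level of both groups in CPM (x axis, log scale), 1 point per feature tested. Coloured points are the 413 called features, by class. Among nuclear gene models, small changes are called mainly at high levels, and 16 of the 17 called ENSRNA features lie below 0.

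The most abundant transcripts took a larger part of the counts in the mutant JA-treated libraries. The 50 features of highest mean CPM over the 12 JA libraries, a choice made on these same libraries, took 44.2%, 46.0% and 44.4% of the counts in the mutant JA-treated libraries, against 35.6%, 37.1% and 39.4% in the libraries filed as mutant untreated. All 3 mutant JA-treated libraries were above all 3 of the others. The means were 44.9% ± 0.966 and 37.4% ± 1.88 (SD, n = 3 each), a difference of 7.50 percentage points, with the smallest 2-sided p that the exact permutation test can give here, 0.1. The larger ENSRNA share of the group filed as mutant untreated moves with this difference. With ENSRNA features left out of the totals the means were 46.0% ± 0.661 and 39.8% ± 0.614, and the difference was 6.15 points, again at an exact permutation p of 0.1.

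Of these 50 features, 22 rose and 7 fell, which is 58% called against 3.67% of all features and 9.98% of the 2816 of highest level. The share called rose with level, and no other features at the level of these 50 were set beside them. Their median log2 fold change was 0.60. Leaving out 1 of the 6 libraries at a time gave 21 to 24 higher and 5 to 7 lower. A parallel difference was found in the other pair of groups, where the 50 features took 46.8%, 47.1% and 46.0% of the counts in the group filed as wild type treated, against 42.0%, 40.5% and 40.9% in wild type JA-untreated libraries. There 25 of the 50 rose and 1 fell, against 1.77% higher and 0.959% lower of all features in that contrast, with a median log2 fold change of 0.35.

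**Figure D2:**
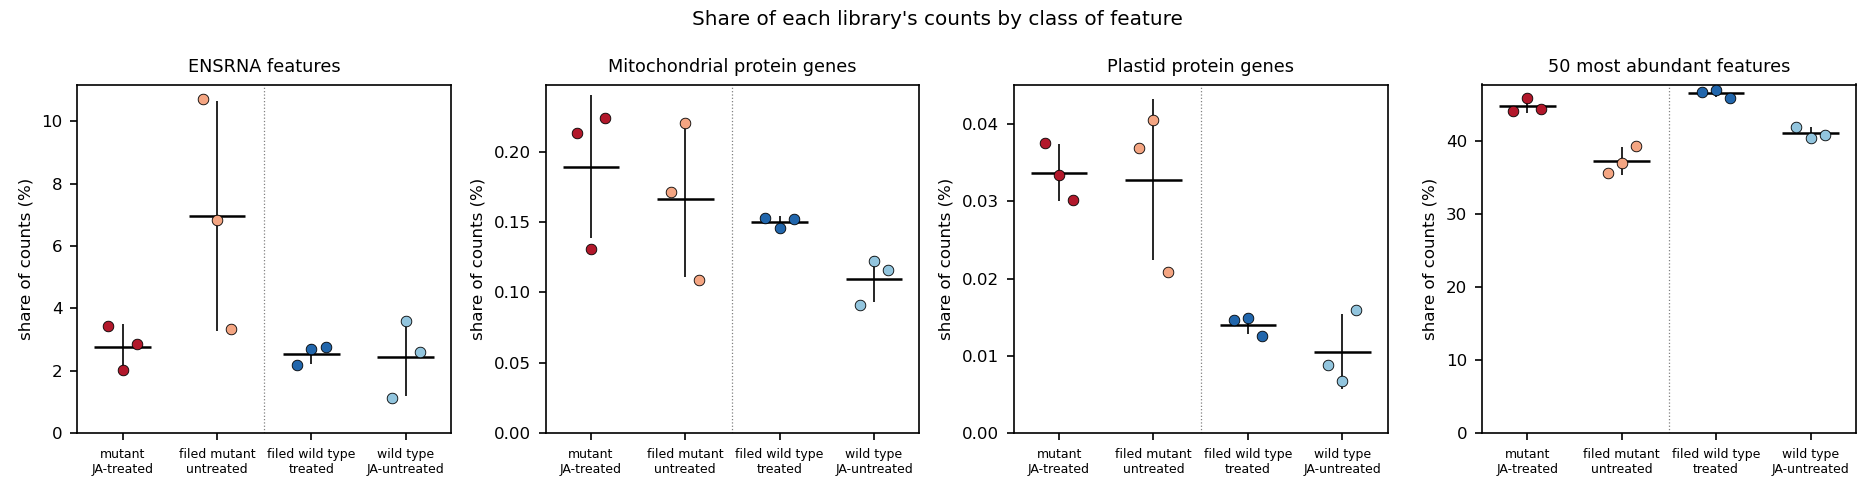
Share of each library's counts (y axis, percent) taken by ENSRNA features, mitochondrial protein genes, plastid protein genes and the 50 most abundant features, in the 4 groups of the JA experiment. Points are libraries, lines means and bars SD (n = 3). The 50 most abundant features do not overlap between the groups of either pair, while the mitochondrial and plastid shares of the 2 groups on the left do.

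The mitochondrial genome of plants encodes a small set of respiratory chain subunits, ATP synthase subunits, ribosomal proteins and proteins of cytochrome c maturation, besides open reading frames of no known function. Of its 175 protein genes and reading frames 26 passed the filter on low counts. Of these, 2 rose and none fell by edgeR, or 7.69% against 3.67% of all features. In edgeR 6 of the 26 had an unadjusted p under 0.05, against 1836 of all 11265 features. DESeq2 called 1 higher and none lower. The median log2 fold change of the 26 was 0.27, and 21 of them lay above 0. With 1 library left out, which also changed how many passed the filter, the median ran from −0.16 over 39 features, without replicate 3 of the group filed as mutant untreated, to 0.44 over 27, without its replicate 2. It was −0.02 over 38 features without mutant JA-treated replicate 3. With replicates 1 and 2 of the group filed as mutant untreated both left out it was 1.64 over 41 features, 40 of them above 0, with 1 called higher. Their summed share of the counts was 0.213%, 0.131% and 0.224% in the mutant JA-treated libraries, against 0.171%, 0.220% and 0.109% in those filed as mutant untreated. These ranges overlap, and the exact permutation p was 0.6.

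The mitochondrial gene cox3, which encodes a core subunit of cytochrome c oxidase, was 1 of the 2 that rose. It was found at 136, 109 and 102 CPM in the mutant JA-treated libraries, against 80.5, 64.6 and 73.0 CPM in the libraries filed as mutant untreated. The groups did not overlap, as they did not, with the mutant JA-treated values higher, for 9.94% of all features (and lower for a further 9.94%). The means were 116 ± 17.7 CPM and 72.7 ± 7.97 CPM (SD, n = 3 each), a log2 fold change of 0.67 ± 0.15 (SE) with an adjusted p of 0.0246 in edgeR. The fold change stayed between 0.53 and 0.75 under 15 alternative settings. The call was lost without replicate 2 or replicate 3 of the group filed as mutant untreated, at adjusted p of 0.112 and 0.0705, and without mutant JA-treated replicate 1 or replicate 2, at 0.118 and 0.0549.

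The other was orf147-b, a mitochondrial reading frame that lies next to cox1 and has a like-named copy elsewhere in that genome, so that its reads may be shared and its level is uncertain. It was found at 41.1, 51.9 and 43.2 CPM in the mutant JA-treated libraries, against 25.1, 30.8 and 27.8 CPM in those filed as mutant untreated. The 3 mutant JA-treated values were all the higher ones, and the log2 fold change was 0.71 ± 0.17 (SE), at an adjusted p of 0.0332 in edgeR. This call is fragile. It was lost when any 1 of the 6 libraries was left out, in DESeq2 (adjusted p = 0.112) and in 12 of 15 alternatives in all, with fold changes of 0.60 to 0.78.

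Both features also rose in the other pair of groups. Cox3 had 106, 97.2 and 101 CPM in the group filed as wild type treated, against 35.8, 51.9 and 45.6 CPM in wild type JA-untreated libraries, a log2 fold change of 1.19 ± 0.15 (SE) at an adjusted p of 0.000317 in edgeR. For orf147-b the values were 56.2, 46.9 and 47.5 CPM in the group filed as wild type treated and 20.9, 18.1 and 19.9 CPM in wild type JA-untreated, a log2 fold change of 1.35 ± 0.16 (SE) at an adjusted p of 0.00017 in edgeR. The point estimates of the mutant-filed contrast were smaller, by 0.53 ± 0.22 (SE) for cox3 and by 0.64 ± 0.24 for orf147-b. Neither difference passed the adjusted threshold (0.369 and 0.33).

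Among the other respiratory and ATP synthase genes, none passed the test. Of 16 such genes 7 passed the low-count filter, 4 of them with a log2 fold change above 0, and cox3 was the one called. In edgeR 2 of the 7 had an unadjusted p under 0.05, against 1836 of all 11265 features. Atp4, which encodes a subunit of the membrane part of ATP synthase, had 97.2, 84.8 and 111 CPM in the mutant JA-treated libraries and 79.7, 75.5 and 54.5 CPM in those filed as mutant untreated, with an adjusted p of 0.116 in edgeR although the groups did not overlap. In the other pair of groups atp4 rose, by 1.10 on the log2 scale at an adjusted p of 0.000597. Cox1, the catalytic subunit of cytochrome c oxidase, had 28.7, 54.4 and 44.4 CPM in mutant JA-treated and 29.6, 33.8 and 32.4 CPM in the group filed as mutant untreated, and these overlap. It rose in the wild type-filed contrast, by 1.23 on the log2 scale at an adjusted p of 0.0443. Nad4, a subunit of complex I, averaged 86.5 ± 17.6 CPM in mutant JA-treated and 70.2 ± 23.7 CPM in the group filed as mutant untreated (SD, n = 3 each).

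None of the mitochondrial genes of protein synthesis passed the test in the mutant-filed contrast. Rps1, which encodes a protein of the small ribosomal subunit, had 227, 215 and 241 CPM in mutant JA-treated libraries, against 208, 175 and 110 CPM in those filed as mutant untreated, at an adjusted p of 0.237 in edgeR. It rose in the wild type-filed contrast, by 1.00 on the log2 scale at an adjusted p of 0.0098. Of 14 ribosomal protein genes 6 were tested, with a median log2 fold change of 0.42 and no call by edgeR. Of the 6, 1 had an unadjusted p under 0.05 in edgeR, against 1836 of all 11265 features. The 18S ribosomal RNA gene rrn18 averaged 1011 ± 204 CPM in mutant JA-treated and 817 ± 281 CPM in the group filed as mutant untreated, (SD, n = 3 each). The 26S gene rrn26 averaged 2121 ± 407 CPM in mutant JA-treated and 2230 ± 414 CPM in the group filed as mutant untreated. Neither was called. The overlapping reading frames orf140-a and orf101-a had nearly the same values, with means of 76.0 ± 15 and 77.3 ± 15.6 CPM in mutant JA-treated and 54.1 ± 4.16 and 54.9 ± 3.81 CPM in the group filed as mutant untreated, and adjusted p of 0.0869 and 0.0924 in edgeR.

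Plastid genes were close to the limit of what these libraries could measure. Only ndhA and ndhD, which encode subunits of the plastid NDH complex, passed the low-count filter among 114 plastid protein genes. NdhD averaged 8.32 ± 1.43 CPM in mutant JA-treated and 8.56 ± 3.68 CPM in the group filed as mutant untreated (SD, n = 3 each). All plastid protein genes together took 0.0375%, 0.0334% and 0.0302% of the counts in mutant JA-treated libraries, against 0.0369%, 0.0405% and 0.0209% in those filed as mutant untreated, with an exact permutation p of 0.9. In the other pair of groups the share was 0.0146%, 0.0149% and 0.0126% in the group filed as wild type treated, against 0.00887%, 0.00672% and 0.0160% in wild type JA-untreated.

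Of the 154 microRNA precursors 2 passed the filter, and neither was called. Zma-MIR169f, a precursor of the miR169 family whose targets in plants include NF-YA transcription factors, had 18.7, 13.9 and 13.6 CPM in mutant JA-treated libraries, against 14.4, 5.96 and 15.1 CPM in those filed as mutant untreated. Zma-MIR396c, a precursor of the miR396 family whose targets in plants include growth-regulating factors, had 15.0, 6.33 and 11.1 CPM in mutant JA-treated, against 3.80, 5.96 and 8.11 CPM in the group filed as mutant untreated. Both pairs of ranges overlap, and a count of a precursor does not measure the mature microRNA.

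More ENSRNA features fell than rose. Of 238 tested, 16 were lower and 1 was higher, 7.14% called against 3.67% of all features, and their median log2 fold change was −0.58. The called changes were large, with a median size of 3.03 on the log2 scale. Some ENSRNA features repeat one another, such as ENSRNA049475181 and ENSRNA049475232, with the same CPM in every JA library. The 238 are therefore not all separate signals, and how many repeat was not counted. ENSRNA049478640 had 42.4, 6.33 and 18.5 CPM in mutant JA-treated libraries, against 989, 4394 and 110 CPM in those filed as mutant untreated. ENSRNA049478513 had 13.7, 5.06 and 25.9 CPM in mutant JA-treated, against 2313, 163 and 37.1 CPM in the group filed as mutant untreated. The groups did not overlap in either feature, but values within the second group differed widely from library to library.

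The fitted log2 fold changes were −6.34 ± 1.42 (SE, adjusted p = 0.0208 in edgeR) for ENSRNA049478640 and −5.80 ± 1.34 (adjusted p = 0.0246) for ENSRNA049478513. Both calls rest on single libraries. Without replicate 2 of the group filed as mutant untreated the change of ENSRNA049478640 was −4.62 at an adjusted p of 0.0758, and without replicate 1 of that group the change of ENSRNA049478513 was −2.75 at 0.151. Leaving out any mutant JA-treated library also ended both calls, at adjusted p of 0.0526 to 0.111. Of the ENSRNA features, 3 were called lower when mutant JA-treated replicate 1 was left out, and 24 when replicate 3 of the group filed as mutant untreated was. It was 5 and 6 without mutant JA-treated replicates 2 and 3, and 9 without replicate 1 of the group filed as mutant untreated. DESeq2 called 30 lower. Replicates 1 and 2 of the group filed as mutant untreated were the libraries of highest ENSRNA share. With both left out, the median log2 fold change of the ENSRNA features was −0.20, and 105 of 261 lay above 0. ENSRNA049478640 was then at −2.30 (adjusted p = 0.523) and ENSRNA049478513 at −1.31 (adjusted p = 0.715). In the wild type-filed contrast 8 ENSRNA features were higher and 0 lower by edgeR, 3.36% called against 2.73% of all features, with 51 of the 238 at an unadjusted p under 0.05 against 1580 of all 11265.

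Among nuclear genes, Zm00001d034107 showed the largest rise under the rule for named features. It had 19.9, 20.3 and 17.3 CPM in the mutant JA-treated libraries, against 0.76, 0 and 0 CPM in the libraries filed as mutant untreated. Over each group these are 46 counts against 1, a ratio of 61 after scaling, and the exact 95% binomial interval, for counting error alone, ran from 10.4 to 2461. The adjusted p in edgeR was 0.000245, and the call held in all 14 alternatives that tested the gene. DESeq2 was not among these alternatives. The gene also rose in the other pair of groups, with 5.53, 6.70 and 9.86 CPM in the group filed as wild type treated against 1.49, 1.13 and 0 CPM in wild type JA-untreated, at an adjusted p of 0.013 in edgeR.

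Zm00001d031158 came next, with 15.0, 13.9 and 21.0 CPM in mutant JA-treated libraries, against 3.80, 0 and 0 CPM in those filed as mutant untreated. These are 40 counts over the first group and 5 over the second, a log2 fold change of 3.34 ± 0.76 (SE) at an adjusted p of 0.0225 in edgeR. The counts of the second group all lie in replicate 1, without which the group is at 0 and the fitted value, 7.32, depends on the prior count. The call was lost without replicate 2 or 3 of the group filed as mutant untreated (adjusted p of 0.0807 and 0.0686) and without mutant JA-treated replicate 2 or 3 (0.0506 and 0.0848). In the other pair of groups it was at 8.29, 12.6 and 2.69 CPM in the group filed as wild type treated and at 14.9, 6.77 and 13.4 CPM in wild type JA-untreated, which overlap.

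**Figure D3:**
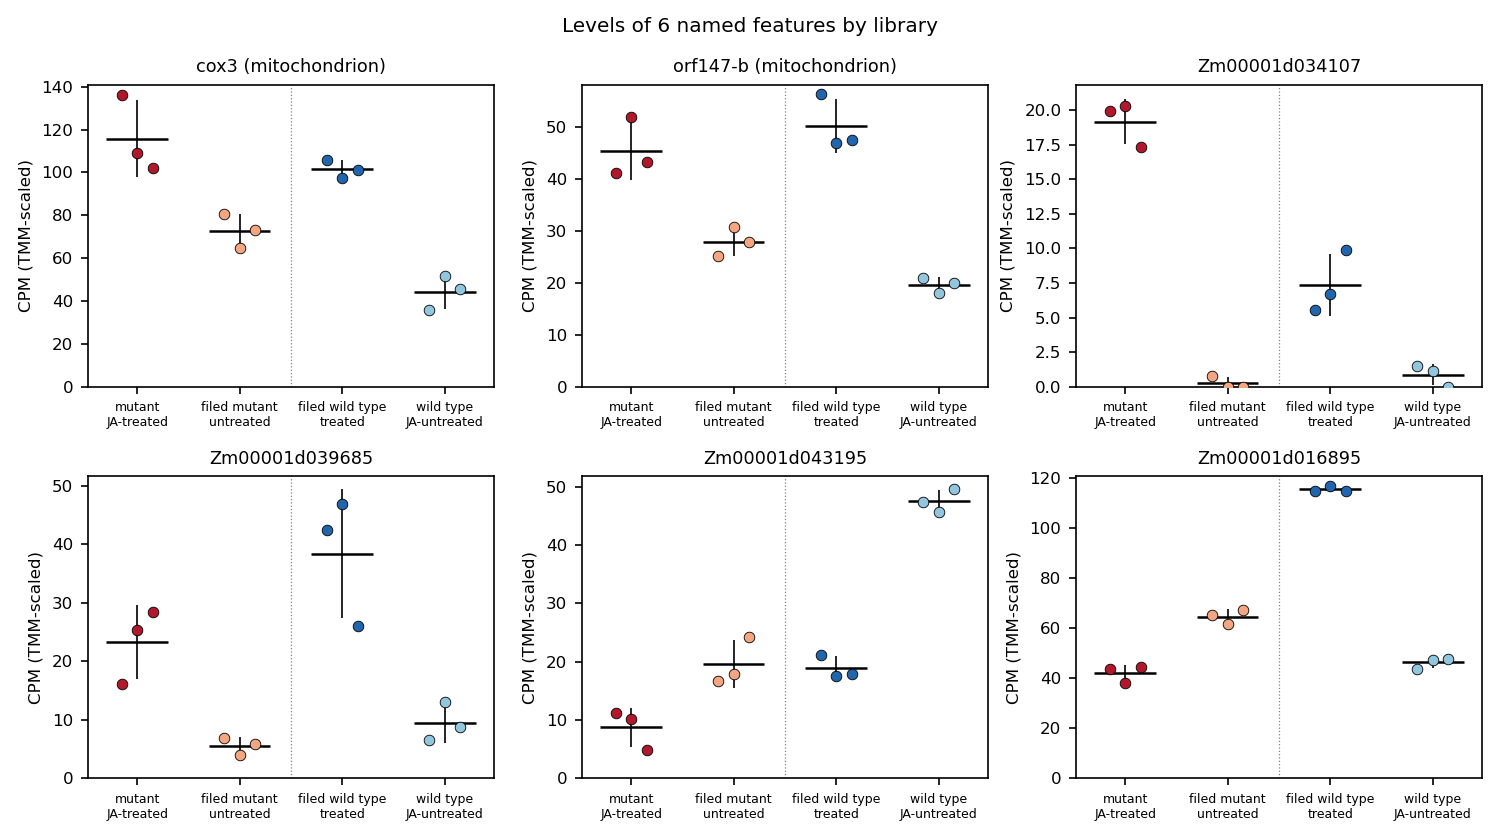
Levels of 6 features (y axis, CPM on TMM-scaled library sizes, each panel with its own scale) in the 4 groups of the JA experiment. Points are libraries, lines means and bars SD (n = 3). Cox3, orf147-b, Zm00001d034107 and Zm00001d039685 are higher in the left group of each pair, Zm00001d043195 is lower in both, and Zm00001d016895 is lower in the left pair and higher in the right.

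The group filed as wild type treated was set against wild type JA-untreated to see which changes recurred in libraries that the first contrast does not use. In that contrast 307 features were called, 2.73% of those tested, with 199 (1.77%) higher and 108 (0.959%) lower. Both contrasts called 118 features, which is 28.6% of the 413 and 38.4% of the 307. Of these, 89 were higher in both, 24 were lower in both and 5 were opposite. The contrasts share no library, but both come from 1 fit and share its spread for each feature. Calls were more frequent among abundant features, and the overlap was not matched for level. Of the 413 features called in the mutant-filed contrast, 318 (77.0%) had the same sign in the other, against 56.5% of all features tested. Across the 11265 features the log2 fold changes had a Pearson r of 0.19 and a Spearman rho of 0.19, a description over features, which are not independent. With replicates 1 and 2 of the group filed as mutant untreated left out, 57 features were called in both, 53 of them in the same direction.

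Most changes of the mutant-filed contrast were not called in the other. These were 295 features, 71.4% of the 413, and 205 of them (69.5%) still had the same sign there. Among the 113 features called in the same direction in both, the median size of change was 0.79 in the mutant-filed contrast and 0.69 in the wild type-filed one, and 68 changed more in the mutant-filed contrast.

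**Figure D4:**
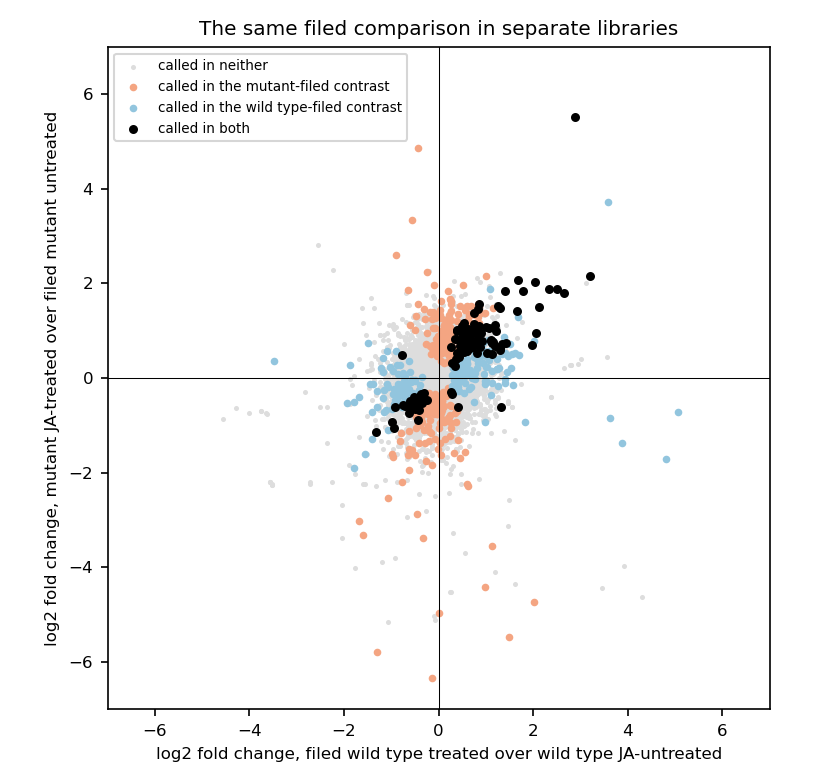
Log2 fold change of mutant JA-treated over the group filed as mutant untreated (y axis) against that of the group filed as wild type treated over wild type JA-untreated (x axis), 1 point per feature tested. Colours give the contrasts in which a feature was called, and 2 features lie outside the axes. Most of the 118 features called in both lie in the upper right and lower left.

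Of the features that rose in both contrasts, Zm00001d035646 and Zm00001d039685 were named by the same rule. Zm00001d035646 had 26.2, 26.6 and 30.9 CPM in mutant JA-treated libraries against 6.84, 6.95 and 5.79 CPM in those filed as mutant untreated, a log2 fold change of 2.07 ± 0.32 (SE) at an adjusted p of 0.00133 in edgeR. It had 12.9, 11.7 and 8.97 CPM in the group filed as wild type treated against 4.98, 3.38 and 1.75 CPM in wild type JA-untreated. Neither pair of groups overlapped, which the rule required. Zm00001d039685 had 16.2, 25.3 and 28.4 CPM in mutant JA-treated against 6.84, 3.97 and 5.79 CPM in the group filed as mutant untreated, a log2 fold change of 2.03 ± 0.41 at an adjusted p of 0.0108. It had 42.4, 46.9 and 26 CPM in the group filed as wild type treated against 6.47, 13.0 and 8.76 CPM in wild type JA-untreated, at a similar log2 fold change of 2.04 ± 0.29. Its first call was lost without replicate 2 of the group filed as mutant untreated (adjusted p = 0.0521) and without mutant JA-treated replicate 3 (adjusted p = 0.0551).

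Of the features that fell in both, Zm00001d043195 had 11.2, 10.1 and 4.94 CPM in mutant JA-treated libraries, against 16.7, 17.9 and 24.3 CPM in those filed as mutant untreated. It had 21.2, 17.6 and 17.9 CPM in the group filed as wild type treated against 47.3, 45.7 and 49.6 CPM in wild type JA-untreated. The log2 fold changes were −1.14 ± 0.29 (SE, adjusted p = 0.0463 in edgeR) and −1.33 ± 0.21 (adjusted p = 0.00202). The first of these calls was lost when any 1 of the 6 libraries was left out, at adjusted p of 0.0506 to 0.263, and in DESeq2 (0.0942). Zm00001d051496 had 18.7, 20.3 and 12.3 CPM in mutant JA-treated, against 34.2, 39.7 and 32.4 CPM in the group filed as mutant untreated, a log2 fold change of −1.05 ± 0.24 at an adjusted p of 0.0228. It also fell in the other pair, by 0.94 ± 0.19 on the log2 scale. The first call ended without replicate 2 of the group filed as mutant untreated (adjusted p = 0.0806) and without mutant JA-treated replicates 1 or 3 (0.0511 and 0.103).

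The difference between the contrasts was tested as an interaction of the 4 groups. It was called for 71 of 11265 features, 0.63%, with 24 (0.213%) higher and 47 (0.417%) lower in the mutant-filed contrast than in the wild type-filed one. Of the 71, 67 were nuclear and 4 were ENSRNA features, and 45 were also called in the mutant-filed contrast itself. The number was sensitive to single libraries. It was 25 without wild type JA-untreated replicate 1, 40 without its replicate 3 and 47 without replicate 3 of the group filed as mutant untreated. It was 43 and 46 without replicates 2 and 3 of the group filed as wild type treated, and 36 and 37 without mutant JA-treated replicates 2 and 3.

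Zm00001d006010 rose in the mutant-filed contrast and did not pass in the other. It had 54.8, 67.1 and 65.4 CPM in mutant JA-treated libraries, against 17.5, 26.8 and 19.7 CPM in those filed as mutant untreated, a log2 fold change of 1.56 ± 0.28 (SE) at an adjusted p of 0.00511 in edgeR. In the group filed as wild type treated it had 6.45, 13.4 and 20.6 CPM, against 22.4, 15.8 and 16.4 CPM in wild type JA-untreated. The difference of the fold changes was 1.99 ± 0.42, at an adjusted p of 0.0462. That call was lost when any 1 of the 12 libraries was left out (adjusted p of 0.0602 to 0.136), other than replicate 2 of the group filed as mutant untreated and replicate 3 of the group filed as wild type treated.

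Zm00001d029716 fell to 6.23, 6.33 and 12.3 CPM in mutant JA-treated libraries, against 45.6, 35.8 and 40.6 CPM in those filed as mutant untreated, a log2 fold change of −2.28 ± 0.38 (SE) at an adjusted p of 0.00264 in edgeR. In the group filed as wild type treated it had 22.1, 12.6 and 8.07 CPM, against 5.48, 11.3 and 11.1 CPM in wild type JA-untreated. The level of the libraries filed as mutant untreated was thus above that of the 9 others. The difference of the fold changes was −2.91 ± 0.54, at an adjusted p of 0.0216, and was lost without replicate 1 of any of the 4 groups or without mutant JA-treated replicate 2 (0.0525 to 0.0719).

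Of 2 further genes, both were called in the wild type-filed contrast and neither in the mutant-filed one. Zm00001d045462 had 17.4, 10.1 and 28.4 CPM in mutant JA-treated, against 14.4, 18.9 and 12.7 CPM in the group filed as mutant untreated. It had 15.7, 18.4 and 21.5 CPM in the group filed as wild type treated, against 56.3, 82.9 and 66.6 CPM in wild type JA-untreated, a log2 fold change of −1.88 ± 0.26 (SE) at an adjusted p of 0.000582 in edgeR. Its level in wild type JA-untreated libraries was above that of the 9 others. Zm00001d044130 had 9.97, 5.06 and 4.94 CPM in mutant JA-treated against 12.9, 12.9 and 12.7 CPM in the group filed as mutant untreated, and 10.1, 10.9 and 12.6 CPM in the group filed as wild type treated against 2.99, 4.51 and 1.75 CPM in wild type JA-untreated. Neither pair of groups overlapped, and its log2 fold changes were −0.94 in the mutant-filed contrast (adjusted p = 0.231 in edgeR) and 1.82 ± 0.37 (SE) in the wild type-filed one (adjusted p = 0.0157). Its difference of fold changes was −2.76 ± 0.54 at an adjusted p of 0.029, and that of Zm00001d045462 was 2.16 ± 0.42 at 0.0301. The difference of Zm00001d044130 was lost without any 1 library (0.0544 to 0.0905) other than wild type JA-untreated replicate 2 and mutant JA-treated replicate 1. That of Zm00001d045462 was lost without any 1 library (0.0511 to 0.108) other than wild type JA-untreated replicate 1 and replicate 2 of both mutant-filed groups.

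The 5 features called in opposite directions by the contrasts are named here because they are so few, after their values were seen. Zm00001d003190 was the only one higher in the mutant-filed contrast, with 419, 359 and 357 CPM in mutant JA-treated libraries against 298, 271 and 246 CPM in those filed as mutant untreated. It had 439, 453 and 497 CPM in the group filed as wild type treated against 785, 781 and 824 CPM in wild type JA-untreated. The 2 log2 fold changes were 0.48 ± 0.10 (SE, adjusted p = 0.0108 in edgeR) and −0.78 ± 0.10 (adjusted p = 0.000202). The first call was lost without replicate 3 of the group filed as mutant untreated (adjusted p = 0.0507) and without mutant JA-treated replicate 1 (adjusted p = 0.0575).

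The other 4 were lower in the mutant-filed contrast and higher in the wild type-filed one. Zm00001d016895 had 43.6, 38 and 44.4 CPM in mutant JA-treated against 65.3, 61.6 and 67.2 CPM in the group filed as mutant untreated, a log2 fold change of −0.62 ± 0.12 (SE) at an adjusted p of 0.0153 in edgeR. It had 115, 117 and 115 CPM in the group filed as wild type treated against 43.8, 47.4 and 47.9 CPM in wild type JA-untreated, a log2 fold change of 1.32 ± 0.11 at an adjusted p of 6.72e-06. The first call was lost in DESeq2 (0.0632), without replicate 1 of the group filed as mutant untreated (0.0573) and without mutant JA-treated replicate 2 (0.105).

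Zm00001d026632 had 167, 178 and 181 CPM in mutant JA-treated against 269, 265 and 277 CPM in the group filed as mutant untreated, and its log2 fold change of −0.62 ± 0.09 (SE, adjusted p = 0.000778 in edgeR) kept its call in all 15 alternatives. It had 309, 317 and 291 CPM in the group filed as wild type treated against 241, 224 and 228 CPM in wild type JA-untreated. Zm00001d035558 had 1139, 1126 and 1138 CPM in mutant JA-treated against 1397, 1399 and 1518 CPM in the group filed as mutant untreated, and 1527, 1657 and 1690 CPM in the group filed as wild type treated against 1311, 1324 and 1352 CPM in wild type JA-untreated.

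The last of the 5, Zm00001d035760, is among the most abundant transcripts of these libraries. It had 50711, 49551 and 50902 CPM in mutant JA-treated against 58816, 58318 and 67852 CPM in the group filed as mutant untreated, and 63626, 69733 and 70130 CPM in the group filed as wild type treated against 56328, 57926 and 56211 CPM in wild type JA-untreated. Neither pair of groups overlapped. The changes are small, with log2 fold changes of −0.29 ± 0.05 (SE, adjusted p = 0.00351 in edgeR) and 0.26 ± 0.05 (adjusted p = 0.0112). With only the 6 libraries in the fit, the calls of cox3, orf147-b, ENSRNA049478513, Zm00001d043195, Zm00001d051496 and the opposite features other than Zm00001d026632 were lost, at adjusted p of 0.0503 to 0.165.

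A separate experiment of the series compared ZmICE1a mutant with wild type endosperm with no hormone, in 3 libraries each whose labels agree. It called 1104 of 17841 features (6.19%), of which 888 were also tested in the JA experiment. These features were followed through the JA contrasts, which share no library with that experiment. In the mutant-filed contrast 67 of the 888 (7.55%) were called, against 3.67% of all features and 367 of the 10886 tested in both experiments. Of the 67, 36 took the direction they had in the genotype experiment and 31 the opposite one. The same sign was found for 48.5% of the 888, against 49.1% of all features tested in both. The count was 40 without replicate 2 of the group filed as mutant untreated, 39 without mutant JA-treated replicate 2 and 42 in DESeq2. In the wild type-filed contrast 55 were called (6.19%, against 2.73% of all features and 270 of the 10886), 39 in the same and 16 in the opposite direction. The share called rose with level, and no other features at the level of the 888 were set beside them.

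The 2 contrasts that cross the pairs gave other values for the same 888 features. Of the 10886 features tested in both experiments, the first contrast below called 544 and the second 311. Between the group filed as mutant untreated and wild type JA-untreated, 586 features (5.2%) were called, and 122 of the 888 (13.7%) were among them, 106 in the direction of the genotype experiment and 16 opposite, with the same sign in 73.5% against 57.3% of all features. Between mutant JA-treated and the group filed as wild type treated, 328 features (2.91%) were called, and 86 of the 888 (9.68%) were among them, 74 in the same and 12 in the opposite direction, with the same sign in 65.8% against 55.0%. By the table names these 2 contrasts set mutant against wild type at a like treatment, and by the titles they set JA-treated against untreated samples of 1 genotype. The 4 contrasts share libraries with each other, so their values stand side by side and the difference between them was not tested.

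**Figure D5:**
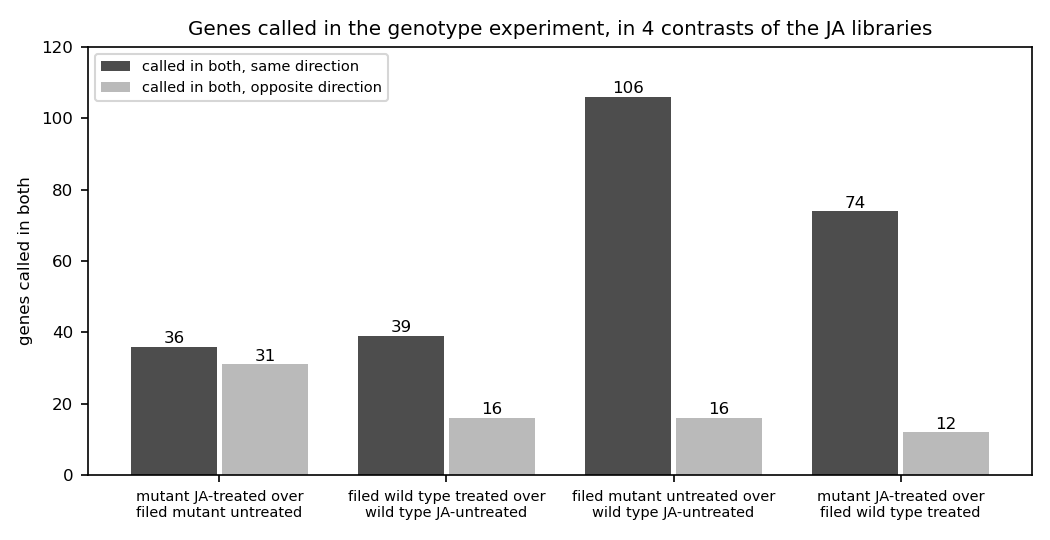
Number of features called both in the genotype experiment and in each of 4 contrasts of the JA libraries (y axis), split into the same and the opposite direction. Bars start at 0 and have no error. The 2 contrasts on the left hold 36 and 39 features of the same direction, and those on the right hold 106 and 74.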

How the data were processed

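The authors deposited whole-number counts per feature, 1 table per library, for 46430 features. Trimmomatic 0.39 and HISAT2 2.2.1 were used per the submitters' processing notes. The sources used here do not give the counting program, genome build, annotation, use of strand or handling of duplicates, so reads of overlapping genes and near-identical copies cannot be told apart. RefSeq names (Zm-B73-REFERENCE-NAM-5.0) were used for organelle genes, and its coordinates only for which of them adjoin or overlap.

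All 12 JA libraries were fitted as 4 groups in edgeR 4.0.16 (R 4.3.3): filterByExpr at a minimum count of 10, TMM scaling, quasi-likelihood 2-sided tests, Benjamini-Hochberg adjustment over all features tested, threshold 0.05. The genotype experiment was fitted alone with its 6 libraries. SE is the absolute log2 fold change divided by the square root of F. CPM use TMM-scaled library sizes. The median biological coefficient of variation was 0.146. Shares of counts were compared by exact permutation tests. The scripts were tested on simulated data.

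Libraries of the same group, in each of the JA and genotype groups, differed with a chi-square per degree of freedom of 1.76 to 6.44, above sampling noise, and were counted as separate. The highest values were 5.62, 6.44 and 4.58, between libraries of the group filed as mutant untreated. Every other pair was at 4.55 or below, with 2.96, 3.07 and 2.56 in mutant JA-treated. The fit gave all JA groups a common spread for each feature, and how this difference affected the calls was not tested.

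Named features passed the threshold, had at least 10 CPM in 1 group and groups that did not overlap, in order of log2 fold change, up to 12 per direction with a name and 2 without. For nuclear features called in both contrasts, the conditions on level and overlap had to hold in both pairs of groups. For these, and for the difference (10 CPM in any group, overlap allowed), the first 2 per direction are given. Members and lists were chosen with earlier results of these data known, and the 50 most abundant features after the values were seen. Alternatives were DESeq2 1.42.0, other scaling and filters, a replicate block, the 6 libraries alone and leaving out libraries. No DESeq2 result was available for Zm00001d034107, Zm00001d031158, Zm00001d035646 or the differences of Zm00001d029716 and Zm00001d044130.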

Additional observations from a re-analysis of the deposited data

Results flagged for a closer look

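A test of the difference between the mutant-filed and the wild type-filed contrast called 71 of 11265 features, 0.63%. The named features have these differences of log2 fold changes, mutant-filed minus wild type-filed, each tested by the interaction term in edgeR. They are 2.16 for Zm00001d045462 (adjusted p = 0.0301), 1.99 for Zm00001d006010 (adjusted p = 0.0462), −2.91 for Zm00001d029716 (adjusted p = 0.0216) and −2.76 for Zm00001d044130 (adjusted p = 0.029).

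For the 5 features called in opposite directions the differences were 1.26 for Zm00001d003190 (adjusted p = 0.000315), −1.94 for Zm00001d016895 (adjusted p = 6.06e-05), −1.02 for Zm00001d026632 (adjusted p = 0.000859), −0.63 for Zm00001d035558 (adjusted p = 0.00237) and −0.55 for Zm00001d035760 (adjusted p = 0.00154). These 5 were chosen for opposite calls in the same fit. A called difference followed from that choice, so these p-values add no separate support.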

How the results depend on the processing

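The 413 calls of the mutant-filed contrast became 520 without ENSRNA features, 280 higher and 240 lower, and 409 in DESeq2, which shared 340. They became 224 with only the 6 libraries compared, 67.0% of them higher against 56.2% of the 413. They became 592 with no filter (42.6% higher) and 150 at an absolute log2 fold change of at least 1. With 1 library left out they became 242 to 297. With replicates 1 and 2 of the group filed as mutant untreated left out together, an alternative chosen after seeing the data, they became 143 (63.6% higher). The 71 called differences became 127 in DESeq2, 289 with no filter, 124 without ENSRNA features, 45 without those 2 libraries and 25 to 57 with 1 library left out. The calls shared with the genotype experiment, 67, became 42 in DESeq2, 28 without those 2 libraries and 39 to 56 with 1 library left out, and the 118 shared with the wild type-filed contrast became 57 without those 2 libraries and 92 to 105 with 1 left out. The cause of these changes in number was not tested. The fits that leave libraries out also hold fewer samples, and the effect of that was not tested either. None of the named features reversed its direction under the alternatives run. Deviations of same-numbered libraries correlated at −0.09 to 0.10, so no shared deviation was seen. This does not settle whether the replicate numbers pair the samples. With a replicate block 337 features were called in the mutant-filed contrast and 47 differences were called. Under the block the calls of orf147-b (adjusted p = 0.0591) and Zm00001d043195 (0.08) were lost, and so were the called differences of Zm00001d006010 (0.0706), Zm00001d029716 (0.0582) and Zm00001d044130 (0.0629). How depth limits the calls was not tested.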

Other observations

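Some neighbouring identifiers were called together. Of 3055 pairs of nuclear features with consecutive identifiers that were both tested, 156 had the first member called in the mutant-filed contrast, and in 25 of these the second was called in the same direction, 22 pairs higher and 3 lower. In 3 pairs the directions were opposite. The second member was called in 17.9% of the 156 pairs. The nearer background is that of the 3055 pairs, where the first member was called in 156, and 3.67% of all features were called. Consecutive identifiers include tandem copies that may share reads, and whether these pairs are such copies was not tested.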
